A study of Mus musculus with 20 samples.

Results

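The genes described are 9 transcription factors of the macrophage lineage, Spi1, Maf, Cebpa, Cebpb, Cebpd, Irf8, Irf4, Runx1 and Klf4, chosen by name from 15855 genes in a scRNA-seq table of cultured macrophages and 15333 genes in a scRNA-seq table of tumor cells. All 9 were present in both tables. The culture table held 2 libraries of B-MF, the macrophages generated from BM B cells in medium taken from cultured 4T1.2 breast cancer cells (4T1.2-CM), and 2 libraries of Mo-MF, generated from monocytes in the same medium. By the paper's general protocol, B-MF came from sorted lineage-negative BM B cells of young female mice of the C57BL/6 or BALB/c strain. The genotype of the mice behind these libraries is not stated, and the paper also made B-MF from reporter mice. Which strain each culture library came from is not given in the sources used here. Neither is whether culture replicates were separate cultures or animals, so p-values measure the spread between these libraries, which may be technical. The tumor table held 4 libraries of cells sorted as macrophages from mice with 4T1.2 cancer, which the table numbers 2 to 5. A further 12 ATAC-seq libraries came from CSF1R+ and CSF1R- B-cell precursors (BMBP) of BM and spleen of untreated mice, with 3 libraries per group. The labels of those 12 libraries call the cells macrophages.

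These factors act in layers. Spi1 encodes PU.1, an ETS factor that opens myeloid enhancers and is required for macrophages. The C/EBP factors encoded by Cebpa, Cebpb and Cebpd bind with PU.1, and forced C/EBP expression is known to turn B cells into macrophages. Irf8 and Irf4 encode interferon regulatory factors that bind composite sites with PU.1, Irf8 in monocytes and dendritic cells and Irf4 in dendritic cells, B cells and alternatively activated macrophages. Runx1 acts early in blood formation and upstream of Spi1 and Csf1r. Maf encodes c-Maf, a factor of resident macrophages, and Klf4 encodes a zinc finger factor needed for monocytes.

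Values are the mean number of corrected transcript counts per cell in a library, converted from the deposited logarithms, and precision is the spread between libraries. The 4 culture libraries held 4846 to 5389 cells with medians of 18350 to 19469 corrected counts per cell, and the 4 tumor libraries 2318 to 3180 cells with medians of 7651 to 8266. The tables were corrected separately, so levels in cultures and tumor were not tested against each other. Any pair of libraries shared at most 14 cell barcodes. All 8 macrophage markers were found in each culture library, with summed levels of 293.3 and 282.1 in B-MF against 600.0 and 590.4 in Mo-MF. The sum weighs abundant genes most and does not rank the cultures as macrophages. Of these markers, C1qa, C1qb, C1qc, Mrc1 and Csf1r were each higher in B-MF. The remaining ones, Adgre1, Apoe and Cd68, were therefore together higher in Mo-MF, as the sum over all 8 was. The 6 monocyte markers summed to 0.627 and 0.625 in B-MF against 5.76 and 5.79 in Mo-MF, and the part of these shifts in the results was not tested. A neutrophil-like cluster, which also met monocyte markers, made up 9.93% and 8.78% of the Mo-MF libraries, and 0.115% and 0.0188% of the B-MF libraries. In the tumor libraries 37.3% to 63.4% of cells fell in neutrophil-like clusters, which goes against their label.

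To ask whether B-MF and Mo-MF differ in these regulators, the library means were compared with limma on the log2 scale after adding 0.1, leaving out genes with a mean under 0.1. Of the 9 factors, 8 were tested, and 6 passed an adjusted p of 0.05, with 3 higher and 3 lower in B-MF. Among all 8633 genes tested, 39.5% passed (22.6% higher and 16.9% lower), against 75% of the 8 factors, and this gap was not tested. The median log2 difference was -0.13 over the 8 factors and 0.02 over all genes tested. For each of the 9 factors the B-MF and Mo-MF libraries did not overlap, which was also the case for 69.6% of all genes tested.

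Maf had the largest log2 difference of the 8, except with a pseudocount of 0.01 in place of 0.1, where Klf4 was ahead. The B-MF libraries had means of 8.28 and 8.37 corrected counts, and the Mo-MF libraries had means of 4.35 and 4.37. Both B-MF libraries lay far above both Mo-MF libraries, and the replicates of each group were close together. The log2 difference was 0.92 ± 0.05 (SE), or 1.89-fold (adjusted p = 3.57e-06, limma with Benjamini-Hochberg adjustment). Most cells held Maf transcripts in both cultures, 98.9% and 99.3% of B-MF against 92.3% and 92.7% of Mo-MF. Among the cells with at least 1 count, the mean was 8.37 and 8.43 in B-MF against 4.72 and 4.72 in Mo-MF, so the level per positive cell differed more than the share of positive cells.

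Klf4 and Runx1 were the other factors higher in B-MF. Klf4 was low in cultures, at 0.177 and 0.161 in B-MF against 0.0733 and 0.0841 in Mo-MF. It was found in 12.9% and 11.6% of B-MF cells and in 6.21% and 6.57% of Mo-MF cells. The groups stood apart in both measures, and the log2 difference in level was 0.59 ± 0.06 (adjusted p = 0.000117, limma with Benjamini-Hochberg adjustment). Because 0.1 was added to such small means, this value understates the ratio, and with 0.01 added it was 1.01. Runx1 had means of 1.46 and 1.38 in B-MF against 1.11 and 1.04 in Mo-MF, with transcripts in 70.7% and 65.0% of B-MF cells and 60.9% and 59.6% of Mo-MF cells. The spread within each group was small against the gap between groups, with a log2 difference of 0.38 ± 0.06 (adjusted p = 0.00112, limma with Benjamini-Hochberg adjustment).

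Spi1 was near its highest possible share of cells in every culture. At least 1 count was found in 99.5% to 99.7% of cells in the 4 libraries. Its mean was 6.35 and 6.26 in B-MF against 6.68 and 6.55 in Mo-MF. The Mo-MF libraries lay just above the B-MF libraries, and the log2 difference of -0.07 ± 0.05 did not pass the test (adjusted p = 0.319, limma with Benjamini-Hochberg adjustment).

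**Figure D1:**
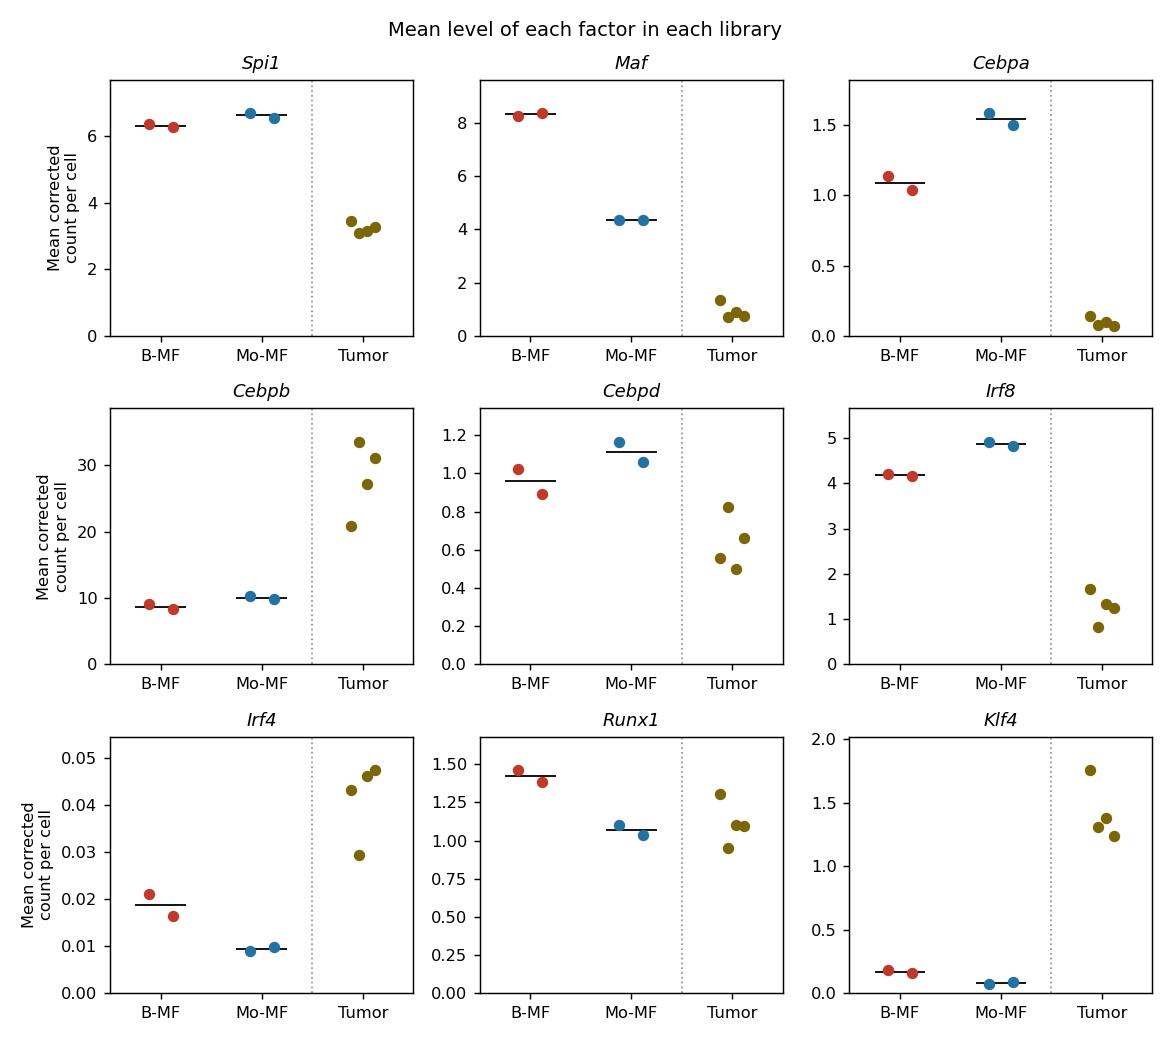
Mean corrected count per cell of each factor (y axis, a linear scale per panel), with 1 point per library for B-MF, Mo-MF and the tumor libraries, which were corrected apart from the cultures, and a line at the mean of each culture group. Maf, Klf4 and Runx1 points of B-MF lie above those of Mo-MF, for Maf at 8.28 and 8.37 against 4.35 and 4.37, and Cebpa, Cebpb and Irf8 points lie below.

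The 3 C/EBP genes behaved differently from each other. Cebpa, whose product promotes the step from progenitors to myeloid cells and restrains division, had means of 1.14 and 1.04 in B-MF against 1.59 and 1.499 in Mo-MF. It was found in 62.4% and 55.4% of B-MF cells and in 70.7% and 68.9% of Mo-MF cells. B-MF was lower in both measures, with a log2 difference of -0.47 ± 0.06 (adjusted p = 0.000494, limma with Benjamini-Hochberg adjustment). Cebpb, the C/EBP factor of inflammatory and mature macrophages, was found in 97.4% to 98.5% of cells of the 4 libraries, with means of 9.05 and 8.42 in B-MF against 10.3 and 9.84 in Mo-MF. The log2 difference was -0.21 ± 0.06 (adjusted p = 0.0233, limma with Benjamini-Hochberg adjustment). The Cebpb call was lost with a pseudocount of 0.01 (adjusted p = 0.0610, limma) and with no filter on low means (adjusted p = 0.0785, limma), both at -0.21. It was also lost without Mo-MF replicate 1 or Mo-MF replicate 2, at log2 differences of -0.17 and -0.24. With 1 library left out, its group is a single library that is assumed to vary like the other group. Without either Mo-MF library, the fit gave every factor tested the same SE of 0.102. The loss of the call there does not measure the spread of Cebpb itself.

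Cebpd, a C/EBP gene induced by cytokines, showed opposite orders for share and level. It was found in 48.7% and 44.5% of B-MF cells but in 36.0% and 35.0% of Mo-MF cells. Its mean over all cells was 1.02 and 0.894 in B-MF against 1.17 and 1.06 in Mo-MF, and its mean in positive cells was 2.10 and 2.01 against 3.24 and 3.03. Fewer Mo-MF cells held it, and those that did held more. The log2 difference of the means, -0.20 ± 0.07, did not pass the test (adjusted p = 0.0668, limma with Benjamini-Hochberg adjustment). It passed as lower in B-MF with a pseudocount of 1 (adjusted p = 0.000251), a filter at a mean of 0.5 (0.0451), or scaling to a shared total (0.0393) or by median ratio (0.00137, all limma). It also passed without B-MF replicate 1 or Mo-MF replicate 2, at log2 differences of -0.29 and -0.26. With the mean of the natural-log values, which weighs high cells less, it was 0.10 in the other direction (adjusted p = 5.4e-05, limma). With a pseudocount of 1, natural-log values or Mo-MF replicate 2 left out, every factor tested had the same SE. Those results do not measure the spread of Cebpd itself.

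Cebpd, Cebpb and Spi1 were high in a neutrophil-like cluster of the Mo-MF cultures. That cluster, 481 and 473 cells in the Mo-MF libraries and 6 and 1 cells in the B-MF libraries, was led by S100a9, Ngp and S100a8 and also met monocyte markers. The clusters were formed without the 9 factors among the variable genes. In this cluster Cebpd had means of 7.47 and 7.17, Cebpb 28.01 and 25.55, and Spi1 9.81 and 10.2 in the Mo-MF libraries. All of these were above the levels in each macrophage-like cluster with at least 50 cells in a library. Over whole libraries, the summed level of the 5 neutrophil markers was 1.06 and 0.724 in B-MF against 145.9 and 117.3 in Mo-MF. The 6 markers of neutrophil precursors summed to 0.0179 and 0.0015 in B-MF against 20.6 and 13.7 in Mo-MF, and 5 and 6 of them were under 0.01 in B-MF replicates 1 and 2. The extent of the neutrophil-like class depended on the clustering resolution, with 961 cells at 0.5 and 631 at 0.25. At resolution 1 it held a cluster of 535 cells led by Igkc, S100a9 and Ngp. Another of 491 cells was led by the monocyte markers Ccr2, Vcan and Chil3, so the class was mixed. The part of each in the levels above was not tested.

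The difference in Cebpd turned when only the macrophage-like clusters were kept, which held 93.4% and 94.4% of B-MF cells and 85.3% and 86.6% of Mo-MF cells. Cebpd then had means of 1.06 and 0.918 in B-MF against 0.479 and 0.476 in Mo-MF. B-MF was higher in both libraries, with a log2 difference of 0.91 ± 0.07 (adjusted p = 1.15e-05, limma with Benjamini-Hochberg adjustment). Among the same cells the Cebpb means were 9.10 and 8.42 in B-MF against 8.36 and 8.31 in Mo-MF. The log2 difference in Cebpb was 0.071 ± 0.06, and its call was lost (adjusted p = 0.388, limma with Benjamini-Hochberg adjustment). Spi1 was at 0.012 ± 0.05 (adjusted p = 0.882, limma with Benjamini-Hochberg adjustment). The calls of Maf, Cebpa, Irf8, Runx1 and Klf4 held in these cells, with log2 differences of 0.95, -0.52, -0.26, 0.43 and 0.60, respectively.

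**Figure D2:**
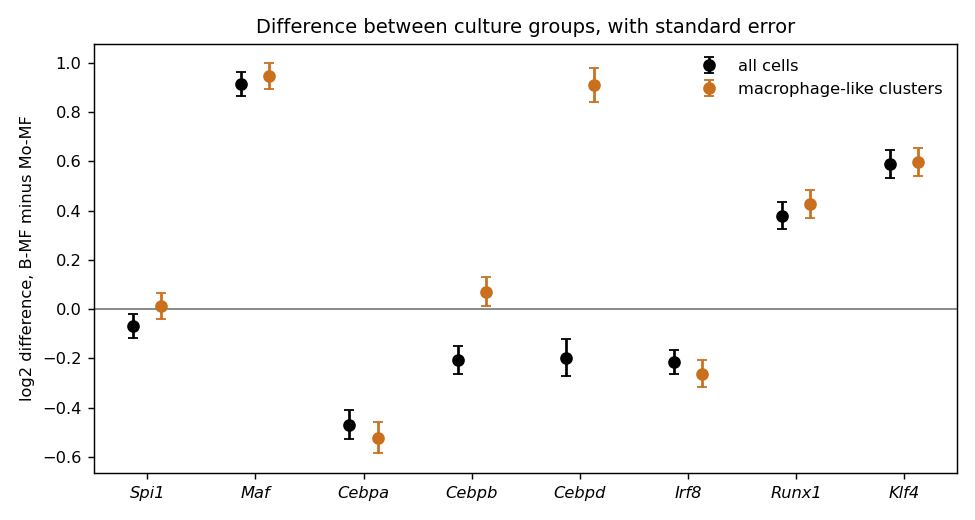
Log2 difference in mean level, B-MF minus Mo-MF (y axis), for the 8 factors tested, over all cells (black) and over macrophage-like clusters (orange), with bars of 1 SE from limma. Maf, Runx1 and Klf4 lie above 0 and Cebpa and Irf8 below 0 in both, while Cebpd lies at -0.20 over all cells and at 0.91 over macrophage-like clusters.

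Irf8, which drives the choice of monocyte over granulocyte fate, had means of 4.22 and 4.17 in B-MF against 4.92 and 4.84 in Mo-MF. It was found in 95.6% to 97.0% of cells of the 4 libraries. The B-MF libraries lay below the Mo-MF libraries by a log2 difference of -0.21 ± 0.05 (adjusted p = 0.0102, limma with Benjamini-Hochberg adjustment). The call was lost without Mo-MF replicate 1 and without Mo-MF replicate 2, where every factor tested had the same SE. The difference stayed between -0.23 and -0.20. Irf4 was close to the limit of these data, at 0.0210 and 0.0163 in B-MF against 0.00887 and 0.00983 in Mo-MF, and was not tested because its mean was under 0.1. It was found in 1.99% and 1.502% of B-MF cells and in 0.825% and 0.872% of Mo-MF cells.

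Shares of positive cells are shares of corrected counts and not rates of detection. A cluster of 1097 cells led by Prss34 and Mcpt8, genes of basophils, with immunoglobulin, Malat1 and mitochondrial genes, had 4 of 4 basophil or mast cell, 5 of 5 B cell and 8 of 8 macrophage markers above the average over clusters (by 1.454, 0.838 and 0.552 in mean log2), and was given no type. In it, all cells of the 4 culture libraries held Spi1, Maf and Irf8, although the mean of Spi1, 4.84 to 5.76, was lower than in the library as a whole. In a fibroblast-like cluster, a cell type that should lack Spi1, 13 cells of B-MF replicate 1 had a Spi1 mean of 0.154, 8 cells of B-MF replicate 2 had none and 2 cells of Mo-MF replicate 2 had a mean of 3.

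Within each culture, levels also varied between macrophage-like clusters. The comparison of clusters is a description, since they were defined in the same cells. The cluster led by Egr1 and Ier3, nearly all B-MF, had the highest Maf, 9.32 and 9.15 in the B-MF libraries, with Cebpb at 12.1 and 10.9 and Cebpd at 1.36 and 1.14. The other large B-MF cluster, with Myc and Ccnd1 among its leading genes, had Maf at 7.57 and 7.73 and Cebpb at 6.36 and 5.88. Cebpb thus separated these B-MF clusters more than Maf did. Among Mo-MF, the cluster led by Arg1 and Fn1 had Maf at 3.93 and 3.95, Irf8 at 5.74 and 5.57, and Cebpa at 1.89 and 1.83. The Mo-MF cluster led by Ly6a had more Maf, 5.36 and 5.32, and less Irf8, 3.69 and 3.48. Every Mo-MF macrophage-like cluster with at least 50 cells was below both B-MF clusters in Maf.

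**Figure D3:**
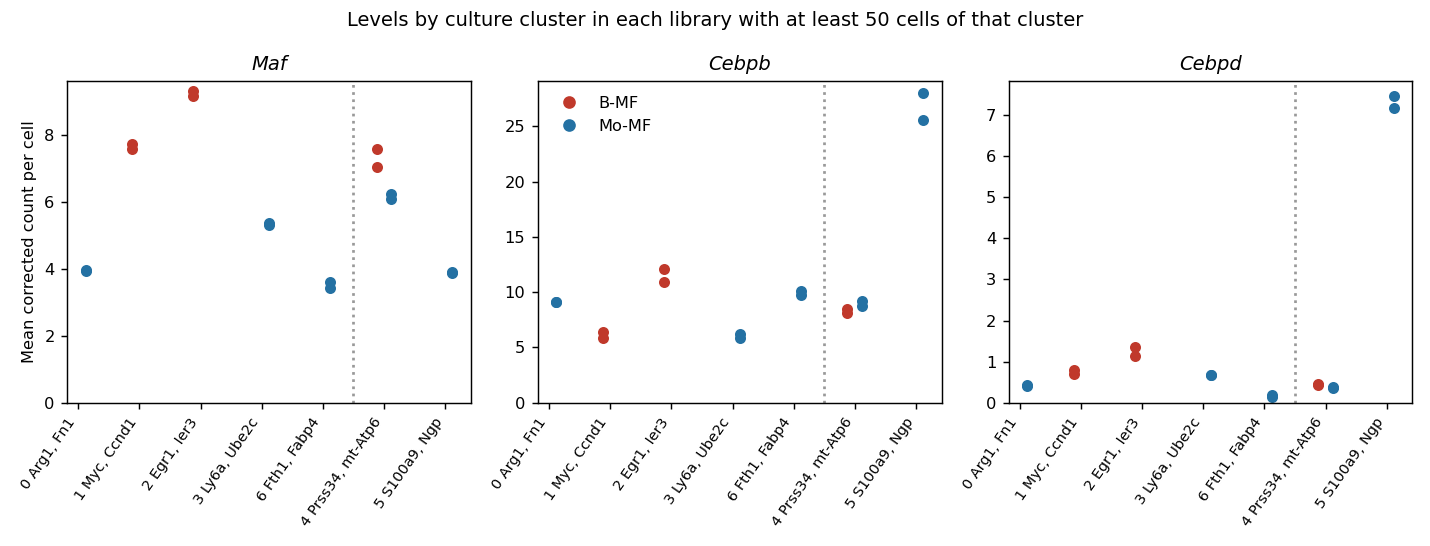
Mean corrected count per cell of Maf, Cebpb and Cebpd (y axes) by culture cluster, with 1 point per library that held at least 50 cells of the cluster, B-MF in red and Mo-MF in blue. Clusters right of the dotted line are the unnamed one and the neutrophil-like one, which lies at 28.01 and 25.55 for Cebpb and at 7.47 and 7.17 for Cebpd, above the others.

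Other genes of the same families were counted from fixed lists with the same test. As all cells were used, the neutrophil-like cells of the Mo-MF cultures are included. Their part in the differences of these and the following lists was not tested. Of 26 relatives of the factors, 20 were tested, 3 were higher and 8 lower in B-MF (55%, against 39.5% of all genes tested), and 9 did not pass, with a median log2 difference of -0.09. The largest differences were in Runx3 (-1.55 ± 0.06), a RUNX gene active in lymphocytes, and in Irf7 (-1.47 ± 0.05), the interferon regulatory factor that amplifies type I interferon. Runx3 was at 0.0745 and 0.0627 in B-MF against 0.390 and 0.398 in Mo-MF, so adding 0.1 understates its ratio. The same holds for other genes with a group mean near or under 0.1, such as Arg1 and Nr4a1 below. Klf2, which restrains inflammatory activation of monocytes, was higher in B-MF, at 2.56 and 2.47 against 1.19 and 1.07, with a log2 difference of 1.09 ± 0.06 (adjusted p = 4.78e-06, limma with Benjamini-Hochberg adjustment). Klf9, a target of glucocorticoid receptor, was lower (-0.67 ± 0.07).

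Of 22 other myeloid regulators, 21 were tested, 6 were higher and 8 lower (66.7%, against 39.5% of all genes tested), and 7 did not pass, with a median of 0.03. Mef2c, a MADS box factor of both lymphoid and myeloid cells, was at 3.39 and 3.34 in B-MF against 1.27 and 1.34 in Mo-MF. This was a log2 difference of 1.30 ± 0.05 (adjusted p = 6.82e-07, limma with Benjamini-Hochberg adjustment). Ets2, an ETS factor downstream of growth factor signals, was also higher (1.11 ± 0.06), and Bhlhe40 (-1.16 ± 0.06) and the oxysterol receptor gene Nr1h3 (-0.66 ± 0.06) were lower. Of 10 B-cell factors, 2 passed the filter, Foxo1 and Tcf3, and neither passed the test (log2 differences of -0.10 ± 0.06 and 0.07 ± 0.06). Ebf1, which specifies B cells, was at 0.0281 and 0.0186 in B-MF and at 0 in both Mo-MF libraries. Pax5, which commits cells to the B lineage, was at 0.0032 and 0.0043 in B-MF and likewise at 0 in Mo-MF. Both genes lay under the filter and were not tested.

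Of 18 genes taken as known targets of the factors, 16 were tested, 9 were higher and 3 lower in B-MF (75%, against 39.5% of all genes tested), and 4 did not pass, with a median of 0.46. Csf1r, the receptor gene that PU.1, C/EBP and RUNX1 control, was at 11.02 and 10.86 in B-MF against 5.87 and 5.66 in Mo-MF. The log2 difference was 0.91 ± 0.05 (adjusted p = 4.43e-06, limma with Benjamini-Hochberg adjustment). C1qa (0.98 ± 0.06) and C1qc (0.96 ± 0.05), complement genes that Maf factors are known to activate, and the mannose receptor gene Mrc1 (0.92 ± 0.05) were higher. Lyz2 (0.51 ± 0.05) and Itgam (0.41 ± 0.05), general myeloid targets, were higher as well. Arg1, which C/EBPb activates in alternatively activated macrophages, was much lower, at 0.0672 and 0.0481 in B-MF against 1.82 and 1.76 in Mo-MF (log2 difference -3.59 ± 0.07, adjusted p = 2.14e-08, limma with Benjamini-Hochberg adjustment). Csf3r, the receptor gene of granulocytes and a C/EBP target, was lower in B-MF too (-1.60 ± 0.06), and the neutrophil-like cells were nearly all in the Mo-MF cultures. The part of these cells in the Csf3r difference was not tested. Il10, a c-Maf target, had means of 0.0907 and 0.0822 in B-MF against 0.0452 and 0.0353 in Mo-MF and was not tested.

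Immediate-early genes, which dissociation and signaling induce within minutes, were counted in the same way. Of 11 listed, 9 were higher in B-MF, where 22.6% of all genes tested were, none was lower and 2 did not pass (Jun at -0.10 ± 0.05 and Atf3 at -0.10 ± 0.05), with a median log2 difference of 1.23. Nr4a1 (2.82 ± 0.06), Egr1 (2.51 ± 0.07), Fosb (2.44 ± 0.07) and Ier2 (1.58 ± 0.07) led. Their part in the levels of the 9 factors was not tested.

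The tumor cells gave a wider range of levels. Over whole libraries, numbered 2 to 5, Spi1 was at 3.45, 3.09, 3.15 and 3.27, and Cebpb at 20.9, 33.6, 27.2 and 31.2. Maf was at 1.36, 0.701, 0.883 and 0.744, Klf4 at 1.76, 1.31, 1.38 and 1.24, and Irf8 at 1.67, 0.836, 1.34 and 1.24. Library 2 was highest in Spi1, Maf, Klf4 and Irf8 and lowest in Cebpb, and it held the lowest share of neutrophil-like cells, 37.3% against 63.4%, 48.7% and 56.8% in libraries 3 to 5. The 4 libraries held 59.9%, 32.7%, 44.7% and 37.3% of cells in monocyte/macrophage-like clusters. Levels by cluster are therefore given below, per library and without a test.

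Maf and Klf4 marked opposite ends of the tumor monocyte and macrophage clusters. Maf was lowest in the monocyte-like cluster with Ccr2 and Ly6c2 among its leading genes, at 0.620, 0.349, 0.558 and 0.436 in libraries 2 to 5. It was at 2.21, 2.31, 2.03 and 1.99 in the cluster with Arg1 and Thbs1, and at 2.53, 2.65, 2.16 and 2.33 in the macrophage-like cluster led by C1qa. Maf therefore ordered these clusters from Ccr2 to C1qa in each of the 4 libraries. Klf4 ran the other way, at 4.29, 4.08, 3.46 and 3.82 in the Ccr2 cluster, 3.39, 3.87, 3.15 and 2.95 in the Arg1 cluster and 1.32, 1.36, 1.13 and 1.46 in the C1qa cluster. Runx1 was lowest in the C1qa cluster, at 1.08, 1.21, 1.01 and 1.0, against 1.79, 1.46, 1.69 and 1.77 in the Arg1 cluster and 2.54, 1.51, 1.72 and 1.95 in the Ccr2 cluster. Maf, Klf4 and Irf8 were found in few cells of the 3 neutrophil-like clusters. In these clusters 8.31% to 10.4% held Maf, 6.79% to 8.44% Klf4 and 5.11% to 8.95% Irf8, with median totals of 7457 to 7597 corrected counts in those clusters against 8314.5 to 8575.5 in the monocyte- and macrophage-like ones. In the monocyte/macrophage-like cells the shares were 48.9% to 62.7% for Maf, 59.6% to 72.0% for Klf4 and 68.7% to 74.5% for Irf8.

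Cebpb and Cebpd were highest in neutrophil-like cells. The Cebpb mean was 32.1 to 44.3 over the 3 neutrophil-like clusters and 4 libraries, 17.8 to 25.9 in the Arg1 cluster, 18.1 to 21.4 in the Ccr2 cluster and 5.89 to 11.03 in the C1qa cluster. The C1qa cluster was the lowest of the 3 monocyte- and macrophage-like clusters in each library, and the ranges of the Arg1 and Ccr2 clusters overlapped. Cebpd was at 0.666 to 1.01 in neutrophil-like and 0.367 to 0.544 in monocyte/macrophage-like cells, so the classes did not overlap between libraries. Cebpa was at 0.160 to 0.225 in monocyte/macrophage-like cells and at 0.0160 to 0.0267 in neutrophil-like cells. Spi1 was spread more evenly, at 3.21 to 3.57 in monocyte/macrophage-like and 3.101 to 3.36 in neutrophil-like cells, ranges that overlapped.

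Small clusters of other cells held extreme levels of single factors. In dendritic-like cells (21 to 32 per library, with Ccr7 and Fscn1) Irf8 was at 16.9, 9.95, 11.3 and 9.94 in libraries 2 to 5, while Maf was at 0 to 0.0476 and Cebpb at 0 to 1.34. The Irf4 mean per cell was highest in these cells, at 0.190 to 0.667, and in the unnamed cluster with Igkc and Cd79a, at 0.286 to 0.767, against 0.0277 to 0.0715 in monocyte/macrophage-like cells. Osteoclast-like cells (11 to 29 per library, with Ctsk and Acp5) had Spi1 at 4.64 to 5.21, above both large classes, and Irf8 at 0.0714 to 0.172, a range like that of neutrophil-like cells (0.0905 to 0.166). With so few cells per library, these means carry wide counting error.

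**Figure D4:**
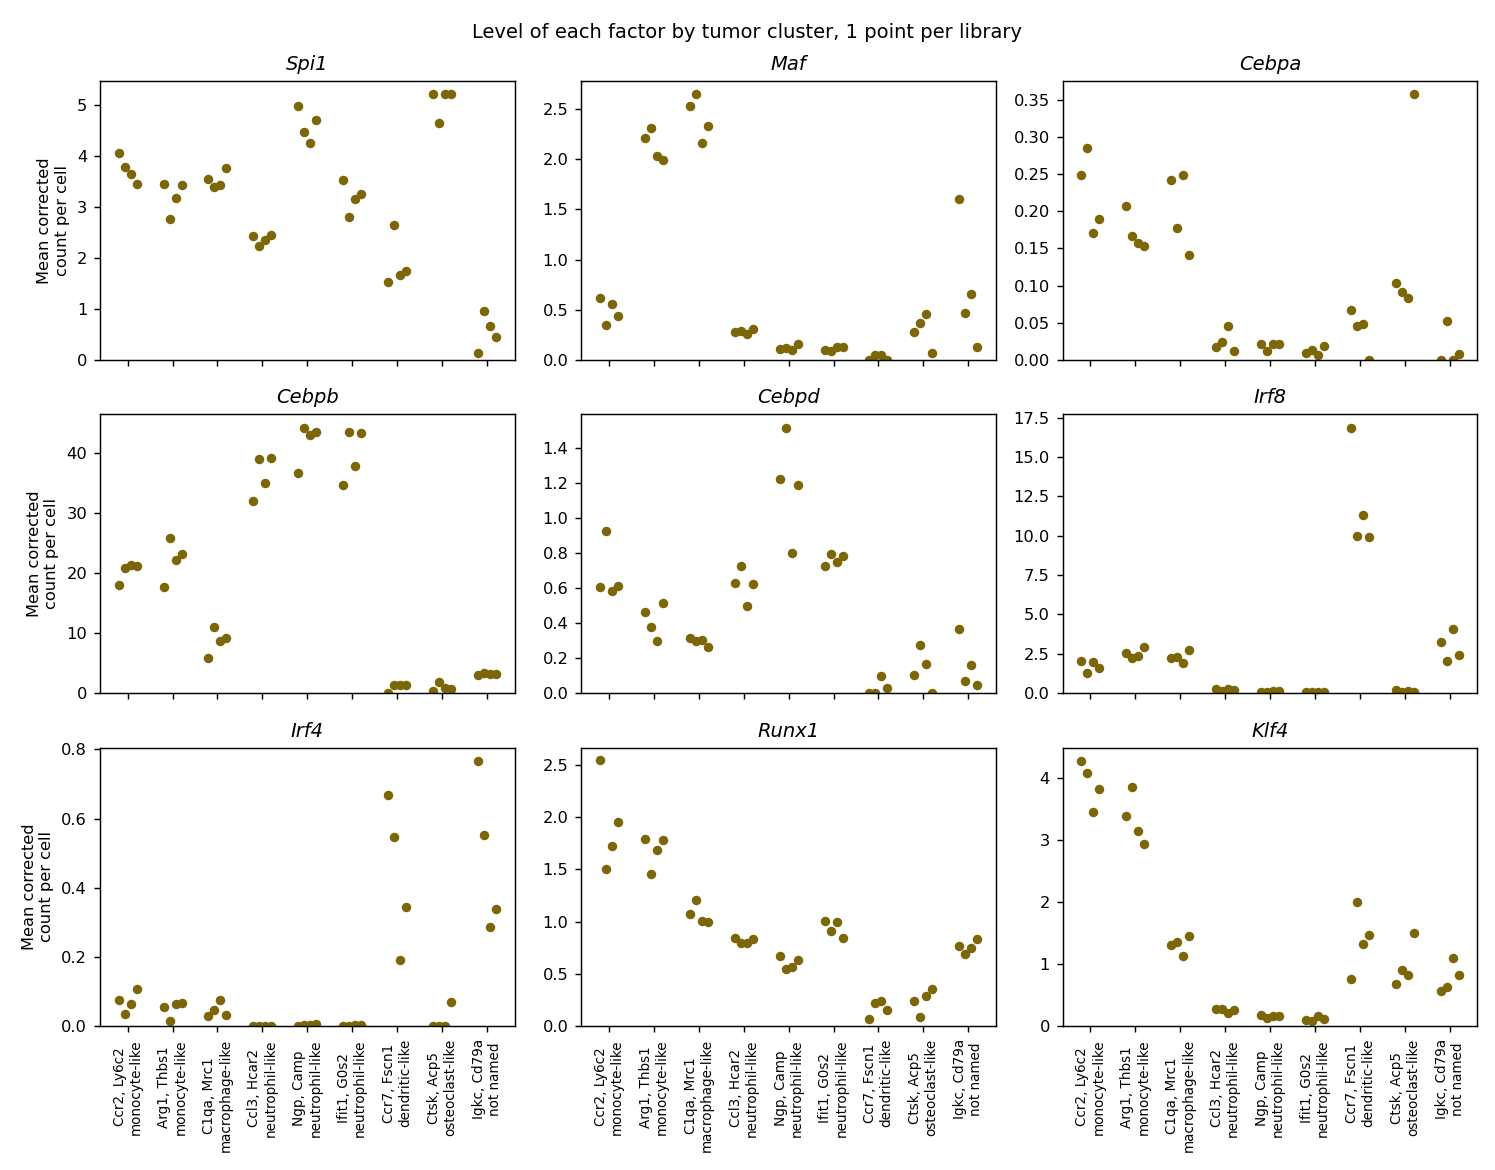
Mean corrected count per cell of each factor (y axis, a linear scale per panel) by tumor cluster, with 1 point per library in the order 2 to 5 from left to right. Maf is highest in the C1qa cluster (2.16 to 2.65) and Klf4 in the Ccr2 cluster (3.46 to 4.29), Cebpb in the neutrophil-like clusters (32.1 to 44.3) and Irf8 in the dendritic-like cluster (9.94 to 16.9).

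Co-expression in single cells was examined next. Cells with at least 1 count of each of Spi1, Maf, Cebpb and Irf8 made up 92.2% and 93.1% of the B-MF libraries and 88.4% and 88.3% of the Mo-MF libraries. In the tumor libraries they made up 27.0%, 11.6%, 17.3% and 15.4%. In the cultures each of these factors alone was found in at least 92.3% of cells, so the high joint shares by themselves show no link between them. Of the 9 factors, 5 to 7 were found together in most culture cells, with 6 the most frequent number in each of the 4 libraries. In each of the 4 tumor libraries the most frequent number was 3 (20.4% to 29.4% of cells). In tumor library 2 the lead was slight, with 649 cells at 3 and 648 at 5. The tumor shares cover all cell classes, with lower totals per cell and a separate correction. They are therefore not a comparison with the cultures.

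Correlations are Pearson r of the natural-log values across the cells of 1 library, averaged over the libraries of a group, given as a description. Cells of a library share its preparation and the correction of depth. In B-MF (5237 and 5326 cells) the highest were Cebpb with Irf8 (0.146) and Cebpb with Cebpd (0.145), and the others were smaller. In Mo-MF (4846 and 5389 cells) the highest were Cebpb with Cebpd (0.29) and Spi1 with Cebpd (0.21), with Spearman rho of 0.175 and 0.134 and partial r given the log total of 0.187 and 0.171. Within the macrophage-like clusters of Mo-MF these became 0.02 and 0.01. The neutrophil-like, unnamed and fibroblast-like clusters were left out together there, and the part of each in the change was not tested.

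The tumor values also differed between all cells and single classes. Over all cells of a library (2318 to 3180), the mean r was 0.32 for Irf8 with Klf4, 0.27 for Maf with Irf8, 0.22 for Runx1 with Klf4 and -0.33 for Cebpb with Irf8. Within monocyte/macrophage-like cells these were 0.04, 0.05, 0.12 and 0.02. Cebpb with Klf4 had no stable sign over all cells (-0.131 to 0.0214 in the 4 libraries, and a mean of 0.0348 given the log total) and was at 0.27 within monocyte/macrophage-like cells, with 0.229 to 0.371 in the 4 libraries. Maf with Klf4 went from 0.19 over all cells to -0.11 within monocyte/macrophage-like cells.

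**Figure D5:**
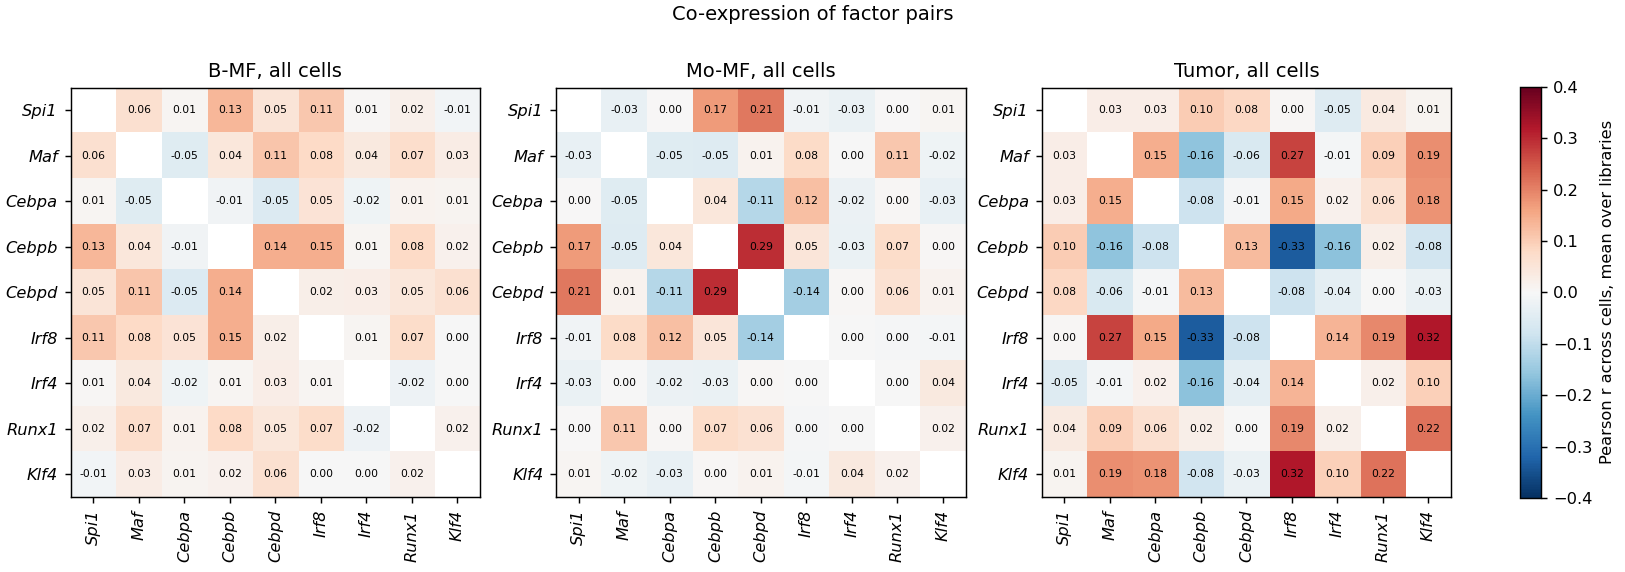
Pearson r across cells for each pair of factors, as a mean over the libraries of B-MF, Mo-MF and tumor (panels), with red for positive and blue for negative values. The highest culture values are Cebpb with Cebpd (0.29) and Spi1 with Cebpd (0.21) in Mo-MF, and the tumor panel holds the strongest values, from -0.33 for Cebpb with Irf8 to 0.32 for Irf8 with Klf4.

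The genes whose values followed each factor most closely were ranked by mean r over the 4 libraries of a table. All cells of a library were used, so differences between cell classes enter these values, above all in tumor. No such ranking was made within a class. Maf was followed by Dab2 (0.36), Wwp1 (0.32) and Csf1r (0.30) in cultures and by Msr1 (0.52), C3ar1 (0.52) and Dab2 (0.50) in tumor, so Dab2, an endocytic adaptor gene, was in both sets. Cebpb was followed by Junb (0.45), Btg2 (0.40) and Ier3 (0.38) in cultures, which are induced early after stimulation, and by Srgn (0.68), Cd14 (0.66) and Mcl1 (0.65) in tumor. Cebpd was followed in cultures by Il1b (0.35), S100a9 (0.34) and S100a8 (0.34), but the value for S100a9 ran from 9.6e-05 to 0.665 between libraries. In tumor it was followed by Lrg1 (0.18), Hp (0.17) and Btg2 (0.17). Spi1 was followed by Tyrobp, Ifitm2 and Il1b in cultures (0.15 to 0.17) and by Tyrobp, Ifitm2 and Arpc1b in tumor (0.28 to 0.33).

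Klf4 had no close follower in cultures, where Nrg1, Tpt1 and Rpl17 were all at 0.06, and was followed by Ahnak (0.56) and Emp1 (0.55) in tumor. Runx1 was followed by Picalm, Xist and Irf2bp2 in cultures (0.14 to 0.17) and by Ahnak (0.30), Ccr2 (0.30) and Ifi207 (0.29) in tumor. Ahnak thus ranked first for both Klf4 and Runx1 over all tumor cells. Irf8 was followed by Trf, H2-K1 and Selenop in cultures (0.25 to 0.26) and by Crip1 (0.50), Rps29 (0.49) and Rps20 (0.49) in tumor. Irf4 had its closest values with Rapsn and H2-Eb1 in cultures (0.05) and with Cd83 (0.23), P2ry10 (0.19) and H2-DMb2 (0.19) in tumor. Cebpa was followed by Atp6v0d2, Fam20c and Lipa in cultures (0.18 to 0.21) and by Psap and Emp3 in tumor (0.22 to 0.23).

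The ATAC-seq peaks show whether the start sites of these genes were already open in B-cell precursors. Genes are placed on mm10 (GRCm38). Spi1 lies at chr2:91082390-91115756, Maf at chr8:115682942-115707794, Cebpa at chr7:35119293-35121928, Cebpb at chr2:167688915-167690418, Cebpd at chr16:15887286-15891031, Irf8 at chr8:120736358-120756694, Irf4 at chr13:30749226-30766976, Runx1 at chr16:92601466-92826149 and Klf4 at chr4:55527143-55532466. Maf, Runx1 and Klf4 are on the minus strand. A gene was scored as having a peak when a peak of a library overlapped the 500 bases on either side of an annotated coding start by at least 1 base.

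All 9 genes had such a peak in 10 of the 12 libraries, and 8 of 9 in all 12, where 48.9% of 21840 genes had one in all 12. The exception was Cebpd, which lacked one in Spleen CSF1R- replicates 1 and 2. None of the 9 had a peak in all 6 BM libraries and no spleen library, a pattern found in 3.04% of genes, and none lacked a peak in all 12, as 38.6% of genes did. The highest fold enrichment at Cebpd was 7.997, 8.495 and 9.11 in BM CSF1R+, 8.90, 9.55 and 9.99 in BM CSF1R-, 5.75, 6.92 and 4.80 in Spleen CSF1R+, and 7.11 in the 1 Spleen CSF1R- library with a peak. Each BM value was above each spleen value in this window, but within 2000 bases the spleen values, 5.48 to 9.65, overlapped those of BM. Cebpb, at 4.69 to 6.86 in BM and 5.96 to 10.7 in spleen, overlapped between tissues. Spi1 was at 15.1 to 17.97 in BM and 18.5 to 22.7 in spleen, and Irf8 at 15.0 to 16.7 in BM and 18.5 to 23.3 in spleen, so both were higher in every spleen library. Fold enrichment is measured against each library's own background, and the BM lists held 65832 to 76530 peaks against 43407 to 50392 in spleen, so these orders are descriptions without a test. When a peak had to cover the start itself, Spi1 had none in any library.

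Promoters of these genes were read from RefSeq on GRCm38.p6 as the 250 bases before each start. Whether the peaks overlap these windows was not checked. The table held 8 entries for 6 of the genes (Cebpa, Cebpb, Irf4, Irf8, Klf4 and Runx1). Letters of 6 motifs were searched on both strands: GAGGAAGT for PU.1, TTGCNNAA for C/EBP, TGTGGTTT for RUNX, TGCTGAC as part of the MAF element, CCACCC for KLF factors and TATAAA for the TATA box. These 8 entries held no match to the first 4, which are found in 2.44%, 9.56%, 1.49% and 3.81% of 32851 promoters. CCACCC, found in 28.1% of all promoters, was in those of Cebpa and Cebpb, and TATAAA, found in 12.4%, in those of Cebpa, Irf8 and Irf4. The 4 promoters with a match are shown 5′ to 3′ on the strand of the gene, with the match in capitals (GGGTGG is CCACCC on the other strand). A match of letters is no evidence of binding.
Cebpa, chr7:35119043-35119292, plus strand: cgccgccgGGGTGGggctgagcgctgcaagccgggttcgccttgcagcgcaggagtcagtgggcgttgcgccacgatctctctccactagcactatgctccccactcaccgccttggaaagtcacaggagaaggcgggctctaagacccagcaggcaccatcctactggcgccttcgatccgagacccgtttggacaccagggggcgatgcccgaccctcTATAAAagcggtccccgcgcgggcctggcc
Cebpb, chr2:167688665-167688914, plus strand: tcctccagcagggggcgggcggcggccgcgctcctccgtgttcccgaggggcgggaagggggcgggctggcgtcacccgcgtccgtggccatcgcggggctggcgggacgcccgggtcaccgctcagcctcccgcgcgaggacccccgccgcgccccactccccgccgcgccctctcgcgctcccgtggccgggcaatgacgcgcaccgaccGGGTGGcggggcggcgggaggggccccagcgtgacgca
Irf8, chr8:120736108-120736357, plus strand: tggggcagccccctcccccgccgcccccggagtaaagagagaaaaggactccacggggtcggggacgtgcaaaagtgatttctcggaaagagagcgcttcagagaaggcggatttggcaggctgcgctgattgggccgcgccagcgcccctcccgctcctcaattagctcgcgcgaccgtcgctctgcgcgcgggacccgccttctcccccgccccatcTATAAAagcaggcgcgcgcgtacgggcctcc
Irf4, chr13:30748983-30749232, plus strand: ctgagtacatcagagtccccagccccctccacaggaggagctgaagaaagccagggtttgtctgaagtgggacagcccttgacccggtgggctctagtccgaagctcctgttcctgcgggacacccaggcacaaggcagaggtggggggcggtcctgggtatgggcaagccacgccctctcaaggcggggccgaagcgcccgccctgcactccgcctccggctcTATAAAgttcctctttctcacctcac
The TATAAA of Cebpa, Irf8 and Irf4 begins 30, 31 and 26 bases before the start, respectively.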

How the data were processed

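The scRNA-seq reads were counted by the authors with Cell Ranger, cells with few detected genes were removed, and counts were corrected with SCTransform. The deposited value of a gene in a cell is a natural log, taken after 1 was added to the corrected count. They were converted back to whole numbers, which all values above 0 gave within 0.01 (largest deviation 0.00196), and averaged over the cells of each library. Uncorrected counts were not used here, so no count model was fitted, totals do not give sequencing depth, and intervals of counting error are not given. All sample columns of the tables were used (0 columns were left unmapped). The tumor columns carry numbers that do not match those of the labels, so tumor values are given per library with no test.

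For ATAC-seq the authors trimmed reads with cutadapt, aligned them to mm10 with BWA, removed duplicates and called peaks per library with MACS2. The deposited lists hold, per peak, a fold enrichment over background and p-values and q-values as -log10, without reads, so the depth is unknown. Starts came from the GENCODE annotation of GRCm38.

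Library means were compared between B-MF and Mo-MF with limma 3.58.1 in R 4.3.3 on log2(mean + 0.1) where the overall mean reached 0.1, two-sided, and p-values were adjusted by the Benjamini-Hochberg method over all genes tested, with a threshold of 0.05. The fit was tested on simulated data. Cells were clustered by Leiden (leidenalg 0.10.2) at resolution 0.5 on 20 neighbors from 30 principal components of 2000 variable genes without the 9 factors. A cluster was given a type, as "X-like", when at least 50% and no fewer than 3 of its markers were above the average over clusters and it led the next passing type by 0.5 in mean log2, with 3 exceptions. The macrophage list was preferred where it came within 0.5 of the lead (1 culture cluster of 2325 cells, at 0.631 against 0.58 for neutrophil markers), neutrophils and their precursors counted as the same type, and a cluster led by a type other than neutrophils or monocytes stayed unnamed where its macrophage markers passed too. Proliferation markers named no cluster. The rule and its exceptions were set after seeing the data. Doublets were not called. The factors, marker lists and gene lists were chosen with earlier results of these data known. Genes named are the 9 factors, the 3 genes with the highest mean r to each, among genes found in at least 5% of cells, and up to 4 genes per list with the largest differences past the threshold, plus Csf1r, Itgam, Csf3r, Lyz2, Mrc1, C1qa, Arg1, Il10, Pax5 and Ebf1. Foxo1 and Tcf3 were added after their values were seen, and some genes that met this rule are not reported here. Alternatives were other pseudocounts, filters, scalings and cell subsets, the replicate number as a block, each library left out, other resolutions and other peak rules. Python 3.11.15 was used.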

Additional observations from a re-analysis of the deposited data

How the results depend on the processing

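Of the 8 factors tested, Maf, Cebpa, Runx1 and Klf4 kept their direction and passed the test under every alternative with all 4 libraries in which they were tested. They also did with each library left out, where the lone library of a group is assumed to vary like the other group, so those p-values say little about stability. With all 4 libraries, 1955 genes were higher and 1458 lower in B-MF. Leaving out 1 library at a time gave 1112 to 3855 higher, 863 to 2950 lower and 4 to 7 factors called. A filter at a mean of 0.5, which tests fewer genes, gave 951 lower genes, and scaling by median ratio gave 2329 lower genes, and the cause of the latter was not tested. Restricting to macrophage-like clusters turned Cebpd to 0.91, Cebpb to 0.071 and Spi1 to 0.012 on the log2 scale, and keeping all clusters that meet macrophage markers gave 0.88, 0.061 and 0.011. The mean of natural-log values turned Cebpd to 0.10. Over the alternatives with all 4 libraries the adjusted p of limma ran from 4.06e-11 to 0.418 for Cebpb and from 1.15e-05 to 0.225 for Cebpd. It ran from 1.63e-12 to 0.0281 for Irf8 and from 0.0579 to 0.882 for Spi1. The Irf8 call was lost only without Mo-MF replicate 1 or Mo-MF replicate 2. With a pseudocount of 1, natural-log values, the replicate block or a Mo-MF library left out, every factor tested had the same SE. Those p-values do not measure the spread of each factor. The mean r of Cebpb with Irf8 in tumor turned to 0.0194 within monocyte/macrophage-like cells. That of Maf with Klf4, smaller over all cells, turned negative there. With the replicate number as a block, 2238 genes were higher and 1670 lower, and Cebpd passed at -0.20 (adjusted p = 0.00479, limma). The libraries numbered 1 deviated from their group means with r = 0.126 over 8633 genes, and with 2 pairs the numbers were not taken to pair the samples. Shares of positive cells moved with a minimum of 2 counts for 27 of 27 and with thinned cells for 20 of 27. Of 108 correlations, 35 moved with Spearman rho, 50 with a partial correlation given the log total, and 62 within monocyte/macrophage-like cells. At resolution 0.25, 1 of 18 tumor class levels moved, and none of 18 did at resolution 1. These levels cover only neutrophil-like and monocyte/macrophage-like tumor cells. At 0.25 a tumor cluster of 562 cells with C1qa among its leading genes was unnamed. The culture fits on macrophage-like clusters were run at resolution 0.5 only. At resolution 1 a culture cluster of 2554 cells led by Arg1 was unnamed. Start site peaks in all 12 libraries were found for 8 factors with a q-value threshold of 5 on the -log10 scale, 7 when the start had to be covered and 9 within 2000 bases.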
